A study of Mus musculus with 17 samples.

Results

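GABA11 and GABA17 are 2 clusters of hypothalamic GABA neurons, the first marked by Ghrh with Gal and the second by Th with Cartpt. Their members are the cells that the authors' deposited cluster table assigns to GABA11 (35 cells) or GABA17 (50 cells), 85 of 1392 GABA cells and 0.589% of all annotated cells. The remaining 16 GABA clusters hold 1307 cells, all neuronal clusters 2315, and 12122 annotated cells lie outside the neuronal clusters. Transcripts were counted by Drop-seq, a droplet method in which beads mark each mRNA by its cell and by its molecule (UMI, unique molecular identifier), in 17 libraries of dissected hypothalamus. All mice were B6D2F1, the offspring of C57BL6 females and DBA2 males, and the labels give neither their age nor their sex. The normal group was 5 normally fed mice and the food-deprived group 3 mice kept without food for 24 hours; the libraries of 1 mouse were summed and the mouse is the replicate throughout.

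Growth hormone-releasing hormone (Ghrh) is made by neurons of the arcuate nucleus, released into the portal vessels of the median eminence and known for driving growth hormone secretion from the pituitary; these neurons are known to carry galanin (Gal) as well. Th encodes tyrosine hydroxylase, the rate-limiting enzyme of dopamine synthesis, and arcuate dopamine neurons are known for restraining prolactin secretion and for sensing prolactin through its receptor Prlr. Ddc makes dopamine from L-DOPA, Slc18a2 loads it into vesicles and Slc6a3 takes it back up from outside the cell. Cartpt encodes the precursor of the CART peptides.

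The promoters of the 4 genes that mark the clusters are shown because the expression values below turn on these genes. Each run is the 250 bases before the transcription start, 5′ to 3′ on the gene's strand, from RefSeq on GRCm38.p6, which is a later build than the mm9 used for the counts; all 4 genes matched. Capitals mark TGACGTCA, the palindromic cAMP response element, or TATAAA, each searched on both strands; the 2 motifs do not overlap. TGACGTCA was found in 1.55% and TATAAA in 12.4% of 32851 RefSeq promoter windows of the same length. Ghrh has 2 RefSeq starts.
Ghrh, first start, chr2:157346656-157346905, minus strand: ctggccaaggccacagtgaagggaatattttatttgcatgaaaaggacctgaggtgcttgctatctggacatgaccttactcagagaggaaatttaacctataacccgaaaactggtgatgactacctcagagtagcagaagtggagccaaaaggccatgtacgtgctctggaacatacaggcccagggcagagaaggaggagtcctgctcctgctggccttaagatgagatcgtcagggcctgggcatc
Ghrh, second start, chr2:157337427-157337676, minus strand: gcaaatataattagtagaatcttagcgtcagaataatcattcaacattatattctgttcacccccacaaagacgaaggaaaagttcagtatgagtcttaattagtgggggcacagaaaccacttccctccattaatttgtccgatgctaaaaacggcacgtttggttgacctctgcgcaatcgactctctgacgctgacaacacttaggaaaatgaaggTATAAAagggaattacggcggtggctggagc
Gal, chr19:3414545-3414794, minus strand: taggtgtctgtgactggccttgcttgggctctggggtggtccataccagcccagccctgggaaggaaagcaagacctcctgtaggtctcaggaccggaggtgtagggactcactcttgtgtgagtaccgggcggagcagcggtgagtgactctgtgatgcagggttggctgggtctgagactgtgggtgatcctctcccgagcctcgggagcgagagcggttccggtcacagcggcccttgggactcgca
Th, chr7:142899996-142900245, minus strand: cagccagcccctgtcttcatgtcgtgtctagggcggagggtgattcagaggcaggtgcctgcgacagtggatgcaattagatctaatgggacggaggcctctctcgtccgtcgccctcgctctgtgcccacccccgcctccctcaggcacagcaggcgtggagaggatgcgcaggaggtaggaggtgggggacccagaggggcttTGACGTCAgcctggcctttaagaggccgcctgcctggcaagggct
Cartpt, chr13:99900684-99900933, minus strand: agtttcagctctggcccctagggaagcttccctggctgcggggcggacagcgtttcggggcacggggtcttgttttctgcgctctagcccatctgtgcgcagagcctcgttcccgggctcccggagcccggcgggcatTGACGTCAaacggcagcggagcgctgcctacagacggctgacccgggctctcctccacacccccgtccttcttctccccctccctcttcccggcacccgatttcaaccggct
The Th window held TGACGTCA beginning 45 bases before the start, the Cartpt window held it 112 bases before, and the second Ghrh window held TATAAA 31 bases before. These are letter matches and no binding was measured here.

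The members were deep for this series, with a median of 5342 UMIs per cell in GABA11 (range 873 to 14883) and 6666 in GABA17 (878 to 31489), against 3725 in the other GABA clusters. The libraries fell into 9 with Gapdh at 4.25 to 8.2 CPM (UMIs of a gene per 1000000 UMIs) and 8 with Gapdh at 146 to 807 CPM; 28 of the 35 GABA11 cells and 23 of the 50 GABA17 cells came from the latter. Every annotated cell matched exactly 1 library by its counts; 161 cells, of which 2 were members, had a barcode that a second library from their batch and feeding group also held. No doublets were called. The clusters had been defined from these same counts, so levels and contrasts between clusters are given as descriptions with no test.

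GABA11 fitted its label. Ghrh stood at 2413 CPM in normal replicate 5, 5265 CPM in food-deprived replicate 1 and 3871 CPM in food-deprived replicate 3, a mean of 3850 ± 1426 CPM (SD, n = 3 mice with at least 5 cells). The cluster held 755 of the 1053 Ghrh UMIs in annotated cells (71.7%), and 34 of its 35 cells had both a Ghrh and a Gal UMI. In myelinating oligodendrocytes (MO), which should lack the gene, 0.113% of cells had a Ghrh UMI at a median depth of 2187 UMIs. Among all neuronal clusters the next level was 773 CPM in the glutamatergic cluster Glu10, where 4 of 15 cells had 10 or more Ghrh UMIs (19 of 35 in GABA11); the next GABA cluster was GABA16 at 19.7 CPM.

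Galanin was the other peptide that GABA11 cells carried in nearly every cell. Its level was 5210, 7112 and 7802 CPM in the same 3 mice, high in all of them. Unlike Ghrh, Gal was shared with other GABA clusters: GABA11 had 8.22% of all Gal UMIs, its summed level of 6950 CPM stood beside 6751 CPM in GABA13, and the mean over mice in GABA13 (7525 ± 3907 CPM, n = 6) was within its own spread of the GABA11 mean (6708 ± 1342 CPM, n = 3). Cartpt was at 1245, 3664 and 2145 CPM and was detected in 23 of 35 cells.

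GABA11 cells also carried the enzymes Th and Ddc but little of the dopamine transporters. Th was at 326, 400 and 288 CPM (338 ± 57 CPM) and found in 22 cells, all of which had Ghrh and Gal; Ddc was at 326, 216 and 168 CPM and found in 17 cells, and 10 cells had both. Slc18a2 gave 2 UMIs in the whole cluster, and Slc6a3, Prlr and Gch1 (the first enzyme of the tetrahydrobiopterin cofactor) gave 0 of 209213 UMIs, which allows up to 14.3 CPM each. When cells were thinned to 2000 UMIs, leaving out 6 shallower cells, Th was seen in 51.7% of GABA11 cells, against 9.22% of the other GABA cells (1009 cells, 298 left out). Th and Ddc were not particular to GABA11 among these other clusters. Its summed Th level of 335 CPM was below GABA7 (983 CPM) and GABA13 (530 CPM). Its summed Ddc level of 191 CPM was below GABA7 (574 CPM) and close to GABA13 (186 CPM).

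**Figure D1:**
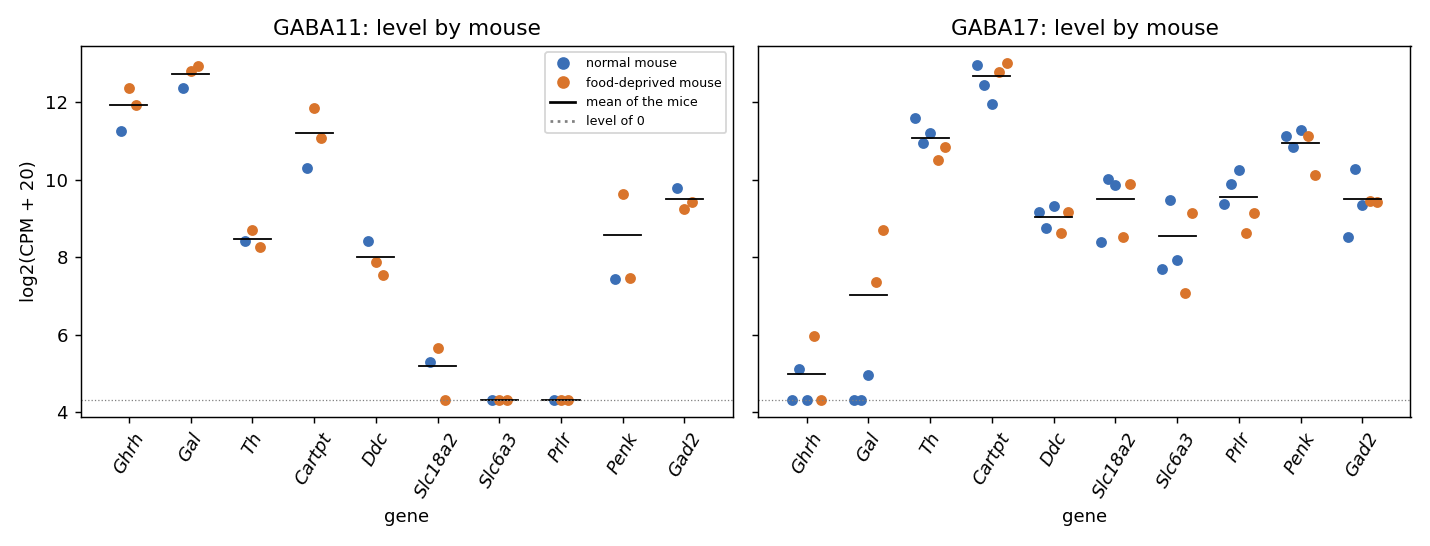
Level of 10 genes in GABA11 (left, 3 mice) and GABA17 (right, 5 mice), as log2(CPM + 20); points are mice, blue normal and orange food-deprived, the black bar is log2 of the mean CPM + 20, and the dotted line is a level of 0. Slc6a3 and Prlr lie on the line in all 3 GABA11 mice and above 100 CPM in all 5 GABA17 mice.

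The transcription factor Gsx1, which is known from mutants to be needed for Ghrh neurons, was at 115, 123 and 168 CPM in GABA11 and had 1 cell in GABA17; its summed level in GABA11 (139 CPM) stood next to GABA16 (149 CPM) and above GABA12 (86.5 CPM). Slc18a3, the vesicular acetylcholine transporter, which with Ghr and Gch1 was named after the values were seen, was at 57.5, 61.6 and 83.9 CPM and was highest in GABA11 of all 34 neuronal clusters, though it was seen in only 11 cells. The growth hormone receptor Ghr was at 64.4 ± 30 CPM, below GABA15 (159 CPM summed). Irs2, an adaptor of insulin and insulin-like growth factor receptors, was at 230 ± 74.5 CPM.

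GABA17 also fitted its label, with all 4 listed dopamine neuron markers present. Th was at 3056, 1964 and 2329 CPM in normal replicates 3, 4 and 5 and at 1442 and 1833 CPM in food-deprived replicates 1 and 2, a mean of 2125 ± 610 CPM (n = 5). Every value lay above the highest GABA11 value of 400 CPM. The next GABA cluster was GABA7 at 983 CPM summed, from 17 cells. GABA17 held 35.1% of all Th UMIs and Th was found in 39 of 50 cells.

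The genes that act after Th were present with it. Ddc was at 558, 410, 616, 375 and 557 CPM in the same order of mice (503 ± 105 CPM). Slc18a2 was at 319, 1026, 918, 346 and 920 CPM (706 ± 344 CPM), below the histamine neurons of cluster Hista alone among neuronal clusters. Slc6a3 was at 186, 689, 224, 115 and 549 CPM (353 ± 251 CPM), with 151 of the 207 Slc6a3 UMIs of the whole series (72.9%). The highest level of Slc6a3 in any other neuronal cluster was 19.9 CPM, in Glu12. All of Th, Ddc, Slc18a2 and Slc6a3 were detected in 25 cells, and 9 of the 11 cells without Th had Ddc, Slc18a2 or Slc6a3. Those 9 include every cell without Th among the 8 cells set apart below, which were picked for Slc6a3 and lack GABA transcripts.

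The prolactin receptor Prlr was at 638, 923 and 1198 CPM in the normal mice and at 375 and 549 CPM in the food-deprived mice. It was found in 42 of 50 GABA17 cells, against 1.53% of MO cells, and in 36 cells together with Th. GABA17 had the highest Prlr of the neuronal clusters (738 CPM summed), with Glu11 next at 682 CPM and within its spread over mice (634 ± 454 CPM, n = 3).

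Peptide precursors were spread unevenly over GABA17 cells. Cartpt averaged 6549 ± 1790 CPM (n = 5, from 3976 to 8251 CPM), yet 21 of 50 cells had none and 1 cell held 425 of the 2544 UMIs. Penk, the enkephalin precursor, averaged 1964 ± 536 CPM and was found in 24 cells. Nts, the neurotensin precursor, was at 26.6, 2111, 358, 678 and 48.4 CPM; 1 cell of normal replicate 4, with 69 Nts UMIs and 0 Th UMIs among 13991, held 30.0% of the cluster's Nts. Cells with Penk were deeper (median 9920 UMIs) than cells without (2411 UMIs); the part of depth in these absences was not tested. Nucb2, the nesfatin precursor, was at 418 ± 131 CPM, the highest of the 18 GABA clusters.

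**Figure D2:**
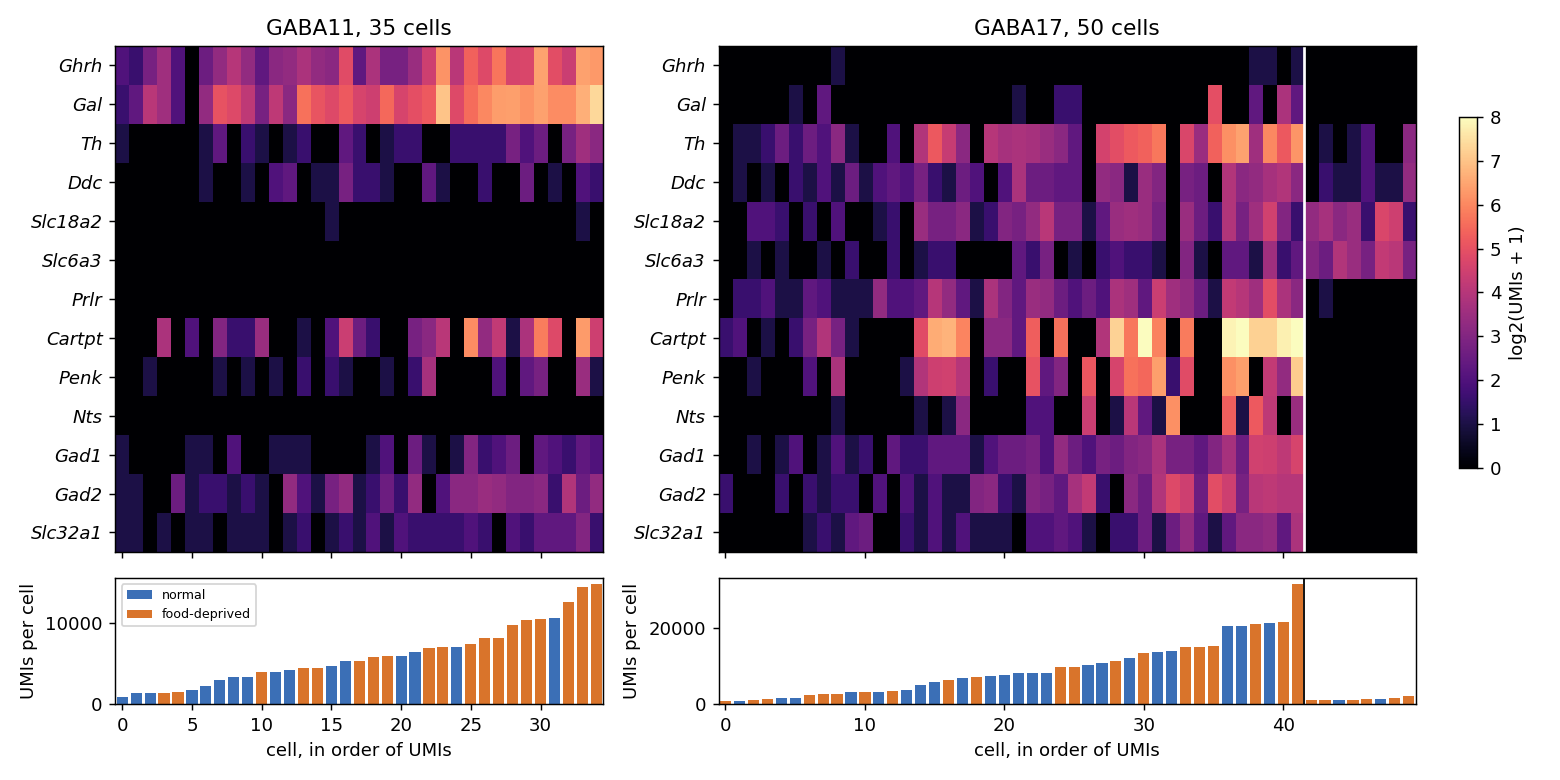
UMIs per cell of 13 genes, as log2(UMIs + 1), in the 35 GABA11 cells (left) and 50 GABA17 cells (right); the bars below give the UMIs of each cell, blue for normal and orange for food-deprived mice. Cells are in order of UMIs, except that the 8 GABA17 cells right of the line, each with at least 5 Slc6a3 UMIs, have no Gad1, Gad2 or Slc32a1.

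Within GABA17, 8 cells stood apart. They were picked after their values were seen, as cells with no UMI of the GABA genes Gad1, Gad2 or Slc32a1 (the GABA synthesis enzymes and the vesicular transporter) and at least 5 UMIs of Slc6a3, so these 4 genes describe the choice. All 8 came from batch 2, 6 from food-deprived replicate 2 and 2 from normal replicate 4, in 4 libraries, and 4 of the 8 were from libraries with low Gapdh. They were shallow, from 983 to 2145 UMIs, and at the level of the other 42 cells their 10640 UMIs would have given 17.5 UMIs of the 3 GABA genes. As shallow were 6 of the other 42 cells, of which 4 had a GABA UMI, and the 2 remaining cells without one had 0 Slc6a3 UMIs.

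These 8 cells carried 82 of the cluster's 151 Slc6a3 UMIs and 89 of its 309 Slc18a2 UMIs in 2.66% of its UMIs. Ret, the receptor of the GDNF family of growth factors, which the choice did not use, gave 28 UMIs in 7 of the 8 cells and 0 in the other 42. Chrna6, a nicotinic receptor subunit, gave 9 UMIs in 5 cells, and 0 in the other 42 cells and in all other neuronal clusters. Aldh1a1, a retinaldehyde dehydrogenase, gave 11 UMIs against 1, and Cck, the cholecystokinin precursor, 18 against 0. Cartpt, Penk, Rab3b and Coch, which gave 2544, 718, 655 and 233 UMIs in the other 42 cells, gave 0 in the 8, where their levels in the rest would have given 69.6, 19.6, 17.9 and 6.37 UMIs. Th was present in 4 of the 8 (13 UMIs) and Ddc in 7. Outside these cells, 4 annotated cells had both Ret and Slc6a3: 2 without a cluster name, 1 in GABA6 and 1 in Glu4.

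Without the 8 cells the mean Slc6a3 level of GABA17 over the same 5 mice was 182 CPM in place of 353 CPM. Slc18a2 was 529 CPM in place of 706 CPM, Th was 2143 CPM, Cartpt 6707 CPM and Gad2 726 CPM. Each of these levels moved by less than its SD between mice. For Slc6a3 that SD was 251 CPM and was not free of the 8 cells. Normal replicate 4 (689 CPM) and food-deprived replicate 2 (549 CPM), which held them, had the highest Slc6a3 levels. No cell type name is given to the 8 cells.

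GABA11 and GABA17 were set against each other in the 2 mice with at least 5 cells of each, normal replicate 5 and food-deprived replicate 1. Of 2752 genes reaching 100 CPM in either cluster, 40 (1.45%) were at least 4-fold higher in GABA11 and 67 (2.43%) at least 4-fold lower, on log2(mean CPM + 20) and with the same sign in both mice. Ghrh (log2 ratio 6.53) and Gal (5.98) led on the GABA11 side, followed by the stress-induced factor Atf3 (4.17), the calcium-binding protein Scgn (4.04), Tmod1 (3.33) and the transcription factor Foxp2 (3.09). Atf3 was at 326 and 616 CPM in these GABA11 mice but at 12 CPM in food-deprived replicate 3, which lay outside this contrast, whereas Scgn was at 249, 369 and 299.6 CPM in the same order. Plekhb1, Apod, Car2 and Ugt8a completed the 10, and 9 of 17, 25 of 27, 28 of 32 and 7 of 9 of their UMIs in GABA11 lay in 1 cell of food-deprived replicate 1. That cell also held 23 of the cluster's 55 UMIs of the myelin gene Mbp. Without it, the log2 ratios of Apod and Car2 were 0.33 and -0.16 and those of Ghrh and Gal 6.47 and 5.87.

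On the GABA17 side, Prlr (-5.33), the extracellular matrix protein Coch (-4.87), Nts (-4.75), the metallothionein Mt2 (-4.04), 1500016L03Rik (-3.92), Slc18a2 (-3.86), the calcium pump regulator Sln (-3.64), Pde1a (-3.45), the transcription factor Six6 (-3.31) and Pkib (-3.28) led. By list, 4 of the 8 dopamine genes that reached the level were at least 4-fold lower in GABA11 (Th, Slc18a2, Slc6a3 and Maob) and none higher, with a median log2 ratio of -1.57 against -0.04 over all 2752 genes. Among transcription factors, Foxp2, Gsx1 and Pbx3 were at least 4-fold higher in GABA11, and Lhx1 and Six6 were at least 4-fold lower. None of the 4 GABA transmitter genes differed 4-fold, with a median of -0.22.

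**Figure D3:**
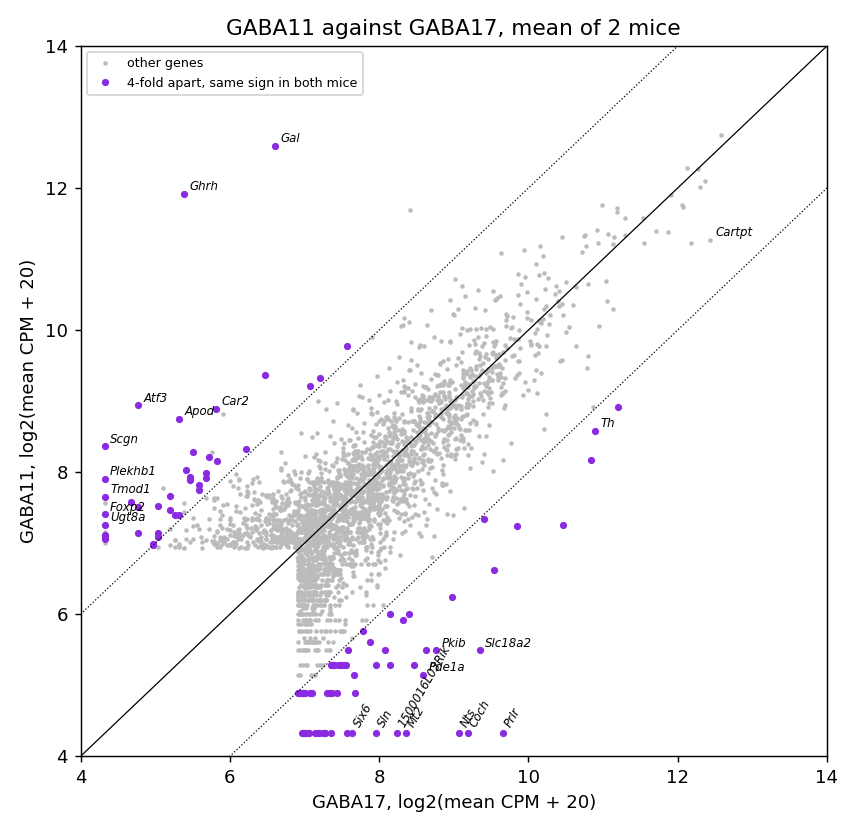
Mean level of 2752 genes in GABA11 (vertical) against GABA17 (horizontal) over 2 mice, both as log2(mean CPM + 20); the solid line is equality, the dotted lines are 4-fold, and purple points are at least 4-fold apart with the same sign in both mice. Ghrh and Gal lie alone at the upper left, while Prlr, Coch and Nts lie along the lower edge, at 0 in GABA11.

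Each cluster was also set against the equal-weight mean of the other GABA clusters. In each mouse that mean took only the clusters with at least 5 cells there, so its make-up differed between mice. On this measure GABA11 had 8 of 2580 genes (0.31%) at least 4-fold higher and 31 (1.2%) at least 4-fold lower, with the same sign in all 3 mice. Ghrh had the largest ratio (7.34 on log2), followed by Car2 (2.93, carried by the cell named above), Scgn (2.85), Gal (2.83), the transporter Slc10a4 (2.39), Foxp2 (2.36), Apoc3 (2.09) and Tmod1 (2.06). Foxp2 was not particular to GABA11, since its summed level of 105 CPM there was below GABA3 (201 CPM) and GABA7 (164 CPM). The lower genes included peptides that define other clusters: Npy (-6.01), Vip (-5.69), Sst (-5.60), Agrp (-4.91), Avp (-4.10) and Kiss1 (-3.43). In GABA17, 16 of 2608 genes (0.613%) were at least 4-fold higher and 15 (0.575%) lower, with the same sign in all 5 mice. The largest ratios were those of Th (4.17), Slc6a3 (4.04), Slc18a2 (3.85), Coch (3.56), Cartpt (3.40), Sln (3.19), Prlr (2.87), the cation channel Trpc6 (2.78), the vesicle GTPase Rab3b (2.54) and the orphan receptor Gpr83 (2.54).

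GABA17 also ranked high for genes of protein folding in the endoplasmic reticulum. Of 13 unfolded protein response genes that reached 100 CPM in GABA17, 8 were highest there among the 18 GABA clusters (61.5%, against 8.78% of the 2324 genes that reached it), namely Hspa5, Hsp90b1, Calr, Canx, Pdia4, Pdia6, Dnajc3 and Dnajb11. None was 4-fold above the other GABA clusters, and the median log2 ratio of the 14 in that comparison was 0.58 against 0.03 over all genes. In GABA11, 0 of 12 such genes were highest (12.9% of 2236 genes were). The granule proteins Scg3, Chgb and Ptprn and the channel subunit Dpp6 were also highest in GABA17, 4 of 14 genes on the granule list. The metallothioneins Mt1 (1584 ± 735 CPM) and Mt2 (384 ± 281 CPM) were highest in GABA17, while Mt1 was lowest of the 18 in GABA11.

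**Figure D4:**
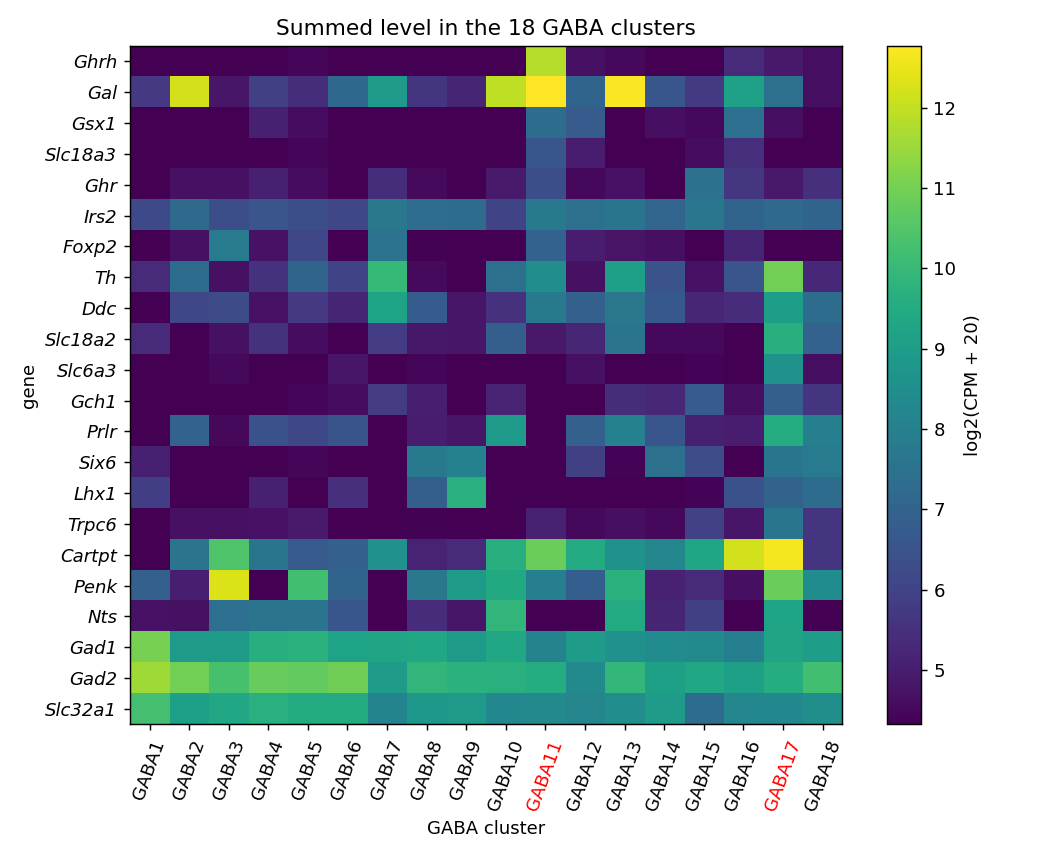
Summed level of 22 genes in the 18 GABA clusters, as log2(CPM + 20) by colour, with GABA11 and GABA17 named in red. Among these clusters Ghrh is bright in GABA11 and Slc6a3 in GABA17, while Gal is as bright in GABA13 and Cartpt also in GABA16.

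Over 4749 genes, the neuronal cluster whose profile was most like GABA11 was GABA16 (Pearson r = 0.902 across genes on log2(CPM + 20)) and the one most like GABA17 was GABA18 (r = 0.908); between GABA11 and GABA17 r was 0.871. Genes whose levels followed Ghrh or Th across the 34 neuronal clusters were also sought. Only genes reaching 100 CPM in GABA11 (2236 genes, for Ghrh) or in GABA17 (2324 genes, for Th) were searched. Genes lower than that in the cluster could not appear. For Ghrh the closest of these were E2f6 (r = 0.59), then Golga2 (0.55), Exoc7 (0.54), Rogdi (0.53), Ndufa7 (0.52), Slc10a4 (0.52), Fam13b (0.52), Stub1 (0.51), H47 (0.50) and Gsx1 (0.50). For Th the closest were Dlx1 (0.72), Cdc42se2 (0.59), Zcchc12 (0.54), Enpp2 (0.54), Rogdi (0.54), Gal (0.54), Ddc (0.53), N4bp2l1 (0.53), Oscp1 (0.52) and Coch (0.50). These are descriptions over clusters that share libraries and differ in depth, and Ghrh was near 0 in most of them.

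Of markers of other cell types, the myelin gene Mbp averaged 485 CPM in GABA11 over normal replicate 5 and food-deprived replicate 1, and 162 CPM without the cell named above, against 153 CPM in GABA17 in the same mice. Slc17a7 and Slc17a8 of the glutamate list were at 0 in both clusters, and Slc17a6 was at 0 in GABA11 and gave 1 UMI in GABA17.

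The effect of 24 hours without food could be tested in GABA17, where 3 normal and 2 food-deprived mice had at least 5 cells. Of 1948 genes tested with edgeR's quasi-likelihood test, 1 rose (0.0513%), which was Gal, and 0 fell (0.0%), at a Benjamini-Hochberg adjusted p under 0.05; 108 had an unadjusted p under 0.05, and DESeq2 called 0. Gal was at 0, 0 and 11.2 CPM in the normal mice and at 144 and 396 CPM in the food-deprived mice, so that the groups did not overlap (log2 fold change 5.37 ± 0.92 (SE), adjusted p = 0.0291). Both food-deprived mice lay above the normal mouse of their own batch. In the replicate block fit, with batch as the block, the log2 fold change of Gal was 7.56 with an adjusted p of 0.396 in edgeR.

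The Gal call rested on few cells. Gal was seen in 9 of 50 GABA17 cells, with 10 UMIs in 3 of 6 cells of food-deprived replicate 1 and 49 UMIs in 4 of 17 cells of food-deprived replicate 2, where 1 cell had 30. The third food-deprived mouse, with 3 cells and too few for the test, had 0 Gal UMIs, and the normal mouse with 1 cell had 1. Without the cell with 30 UMIs the log2 fold change was 4.56 and edgeR's adjusted p was 0.434; leaving out any of the 3 normal mice also left 0 calls. Gal in MO cells, a measure of free RNA, was at 29.9 and 18.8 CPM in the 2 food-deprived mice and at 29.1, 15 and 13 CPM in the normal mice; its part in the result was not tested.

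The response of Gal in GABA17 differed from that in the other GABA clusters, with a difference in log2 fold change of 5.36 and an adjusted p of 1.37e-07 in edgeR's interaction test with the mouse as a block. It was the 1 gene called of 8325 (0.012%, 0 lower), 306 had an unadjusted p under 0.05, and DESeq2 called 0. In the other GABA clusters Gal was at 1310, 1628 and 1198 CPM in the 3 normal mice and at 1103 and 2419 CPM in the 2 food-deprived mice, which overlap.

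**Figure D5:**
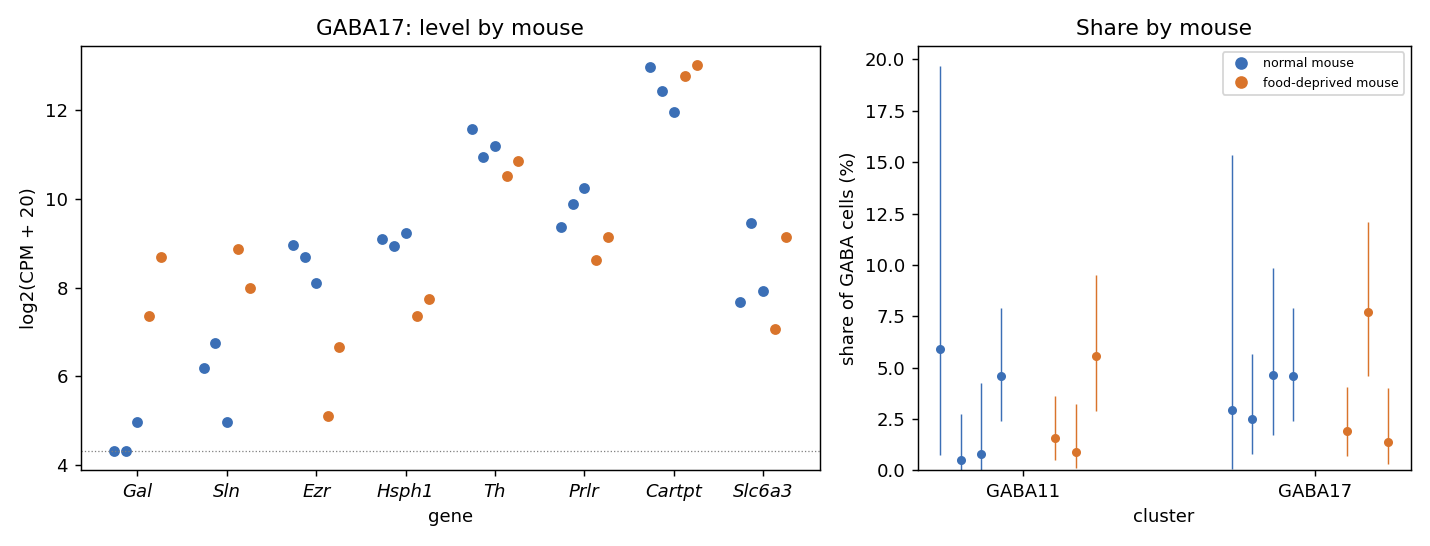
Left, level of 8 genes in GABA17 by mouse, as log2(CPM + 20), with a level of 0 at the dotted line; right, percent of GABA cells in each cluster by mouse, with exact 95% binomial intervals. Blue is normal and orange food-deprived; Gal, Sln, Ezr, Hsph1, Th and Prlr do not overlap between the groups on the left, and the shares overlap on the right.

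No other gene passed. Groups did not overlap for 199 genes on the higher side (10.2%) and 170 on the lower side (8.73%). With the smallest unadjusted p among these on the higher side, Sln was at 53.1, 88.0 and 11.2 CPM in the normal mice and 447 and 234 CPM in the food-deprived mice (log2 2.73 ± 0.59 (SE), edgeR adjusted p = 0.131), and Cxx1c and Rwdd2a had log2 differences of 1.24 and 1.19. On the lower side, the membrane linker Ezr was at 478, 396 and 258 CPM against 14.4 and 80.7 CPM (log2 -2.72 ± 0.53, adjusted p = 0.0598), the heat shock protein Hsph1 at 531, 469 and 582 CPM against 144 and 194 CPM (log2 -1.64 ± 0.37, adjusted p = 0.164), and the kinase Gsk3b had a log2 difference of -1.38.

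None of the genes that mark GABA17 passed. Th (log2 -0.60 ± 0.31, edgeR adjusted p = 0.912) and Prlr (-1.04 ± 0.34, adjusted p = 0.522) were lower in both food-deprived mice than in every normal mouse, and Cartpt (0.37 ± 0.35), Slc18a2 (-0.30 ± 0.42), Slc6a3 (-0.12 ± 0.54) and Penk (-0.45 ± 0.33) overlapped. By list, 0 of 6 tested dopamine genes, 0 of 11 heat shock genes, 0 of 13 unfolded protein response genes, 0 of 8 immediate early genes and 0 of 3 glucocorticoid-induced genes were called. The medians were -0.16 for the dopamine genes, -0.40 for the heat shock genes and -0.34 for the unfolded protein response genes, against -0.02 over all 1948 genes.

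GABA11 could not be tested at that minimum, since 1 normal mouse had at least 5 cells. Its values stood at 2413 CPM of Ghrh in that mouse against 5265 and 3871 CPM in the 2 food-deprived mice, and at 1245 CPM of Cartpt against 3664 and 2145 CPM. With mice of at least 2 cells, an alternative added after the data were seen (2 normal and 3 food-deprived mice), edgeR called 0 of 803 genes higher (0.0%) or lower (0.0%), and 15 had an unadjusted p under 0.05. In that fit Ghrh had a log2 fold change of 0.47 ± 0.35 (adjusted p = 0.991), Gal of 0.24 ± 0.28 and Cartpt of 1.17 ± 0.62. In neither set of mice did a batch hold both a normal and a food-deprived mouse. Feeding state and batch therefore cannot be told apart in these GABA11 values.

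The share of each cluster among GABA cells varied as much within as between the groups. GABA11 made up 5.88, 0.495, 0.775 and 4.60% of GABA cells in normal replicates 2 to 5 and 1.57, 0.909 and 5.56% in the food-deprived mice. The means were 2.94 ± 2.71% (SD, n = 4) and 2.68 ± 2.51% (SD, n = 3), a difference of -0.26 percentage points (two-sided exact permutation test, p = 0.914, adjusted over the 2 clusters p = 1). GABA17 made up 2.94, 2.48, 4.65 and 4.60% in the normal mice and 1.89, 7.73 and 1.39% in the food-deprived mice, with means of 3.67 ± 1.12% and 3.67 ± 3.52% (exact permutation test, p = 1). The smallest p this design allows is 0.0571. Within batch 1 and batch 2 the food-deprived mouse differed from the normal mouse by 1.08 and 0.134 percentage points for GABA11 and by -0.588 and 3.08 for GABA17; 6 of the 17 GABA17 cells behind the highest share, that of food-deprived replicate 2, were among the 8 cells described above.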

How the data were processed

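The authors deposited UMI counts per gene and cell barcode for each library and in 1 merged table, with a table of cluster names. The counts are raw whole numbers on mm9, per the submitters' processing notes; the aligner and counter were not stated in any source used here. Cells of the merged table were joined to libraries by batch, state, barcode and identical counts. Levels are UMIs per 1000000 (CPM) summed per mouse, for mice with at least 5 cells of the cluster; contrasts add 20 CPM. The 17 libraries held 366371 to 5997610 UMIs, and intervals cover counting error only. Food deprivation was tested after filterByExpr with edgeR 4.0.16 on TMM factors and with DESeq2 1.42.0 on its own size factors by a Wald test (R 4.3.3). Shares were tested by exact permutation over mice with at least 20 GABA cells. On simulated data for the GABA17 comparison (1948 genes, log2 changes of 3) 191 of 191 tested changed genes were recovered with the right sign and 4 others were called; for the interaction (8325 genes) 87 of 189 were recovered and 186 had the right sign. The simulations gave every gene the same fixed dispersion, which was not estimated from these data. These counts therefore do not give the share of real changes of that size that the tests would find. Labels give no litter or culture, and mice of a batch share only their batch. Members and lists were chosen with earlier results of these data known. Named genes are the 4 markers, listed genes reaching 100 CPM (a selection is named and the rest are counted), the 10 largest contrasts each way, the 3 smallest p each way without overlap, and the 10 genes most like Ghrh and Th; the 8 GABA17 cells, the genes named in them, and Slc18a3, Ghr and Gch1 were chosen after their values were seen. Alternatives were other tools, filters, minimum cells, denominators, left-out mice and batch as replicate block.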

Additional observations from a re-analysis of the deposited data

Results flagged for a closer look

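The response of Gal to food deprivation in GABA17 differed from that in the other GABA clusters by 5.36 on the log2 scale in edgeR's interaction test, over 3 normal and 2 food-deprived mice. It was picked out because the difference between the responses itself passed that test, though DESeq2 called 0 genes for the same difference. Gal UMIs were found in 9 GABA17 cells, and 1 cell held 49.2% of them. The interaction was not fitted without that cell.

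The 3863 barcodes with counts but no deposited cluster name also carried the 4 marker genes above the 3 UMIs that a count of 0 allows. They held 10 Ghrh UMIs in 6 libraries, 274 Gal UMIs in 16, 37 Th UMIs in 13 and 587 Cartpt UMIs in 17, among 2024723 UMIs. These barcodes enter no comparison. The shares of the 4 normal mice were also checked for a mouse far from the others, and none was found for GABA11 or GABA17.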

How the results depend on the processing

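The share differences had no stable direction. For GABA11 the main value of -0.2586 percentage points became 0.3289 with all 8 mice, 0.6056 as the mean within batches as replicate block, 1.104 in libraries with Gapdh under 50 CPM, -0.412 among all neurons and -0.121 among all annotated cells, and ran from -1.697 to 0.723 with each mouse left out. For GABA17 the main value of 0.001329 became -0.3033 among all neurons, -0.1282 among all annotated cells and -0.4856 without the 8 cells (added after the data were seen), but 0.7346 with all 8 mice, 1.244 as the mean within batches as replicate block and 2.932 in libraries with Gapdh under 50 CPM, and ran from -2.028 to 1.141 with each mouse left out.

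The 1 gene called in GABA17 became 0 with DESeq2, with a minimum of 3 cells, with batch as replicate block and without the cell with most Gal UMIs (added later), 19 without a filter on low counts (2 higher and 17 lower), and 0 to 3 with each mouse left out: 0 without each of normal replicates 3, 4 and 5, and 3 without either food-deprived mouse, with Gal among them when replicate 1 was left out and not when replicate 2 was. The 1 gene of the interaction became 0 with DESeq2 and 1 to 4 with each mouse left out, 4 without normal replicate 4. Fits with at least 10 cells per mouse, in libraries with low Gapdh alone, or for GABA11 with 5 or 3 cells were not run, since under 2 mice per group remained.

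The 107 genes 4-fold apart between GABA11 and GABA17 became 162 with a floor of 5 CPM, 20 with a floor of 100 CPM, 64 with all cells summed and 30 at a minimum of 300 CPM, and 177 to 398 with 1 mouse left out, where the same sign in every mouse asks less. All 60 alternative values for the levels of Ghrh, Gal and Th in GABA11 and of Th, Cartpt, Gad2, Slc6a3 and Slc18a2 in GABA17 moved by less than the spread (SD) between mice. For the values with 1 mouse left out this was fixed in advance, since dropping 1 mouse cannot shift a mean by a full SD. The spread used for Slc6a3 and Slc18a2 also includes the mice that held the 8 cells.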
